A study of Mus musculus with 8 samples.

Results

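The genes described here are 36 genes of cholesterol and fatty acid synthesis, of its control and of cholesterol export, picked by symbol from the 34478 genes of the deposited table. All 36 were found. They comprise 7 enzymes of the mevalonate pathway, 11 enzymes that turn its product into cholesterol, 5 genes of the SREBP control system, 8 genes of fatty acid and glycerolipid synthesis, 2 genes of cholesterol transport, and 3 targets of the liver X receptors (LXR), Abca1, Abcg1 and Mylip. RNA came from 4 primary murine pancreatic ductal adenocarcinoma (PDAC) cell lines, numbered #1, #3, #5 and #10, grown in medium with fetal bovine serum. All lines derived from tumors of genetically engineered mice that carried Ptf1awt/Cre and Trp53loxP/loxP, in which a Cre recombinase expressed from the Ptf1a locus, active in pancreatic progenitors and acinar cells, deletes Trp53. Both treatment groups share the same genotype. Each line gave 1 library after treatment with the solvent DMSO and 1 after 48 h with trametinib, an inhibitor of the kinase MEK, at that line's own half-maximal inhibitory concentration. The dose could thus differ between lines and is not given in the labels, nor are the age and sex of the mice.

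Cells make cholesterol from acetyl-CoA through mevalonate, isoprenoids and squalene. The same precursor, extended by acetyl-CoA carboxylase and fatty acid synthase, gives palmitate, which is elongated and desaturated to the fatty acids of membranes. Genes of both routes are switched on by the SREBP transcription factors, which the escort protein Scap carries from the endoplasmic reticulum to the Golgi for cleavage when sterols are low, and which Insig proteins hold back when sterols are high. LXR work in the opposite situation. Oxidized sterols activate them, and their targets export cholesterol from the cell or remove the receptor that takes it up.

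The libraries summed to between 30680091 and 36385719 normalized counts. The low values piled up at steps of 0.775 to 1.24 normalized counts, read here as the worth of a single read, so that the floor used below, 3 reads, lay between 2.33 and 3.72. Dusp6 and Etv4, which are switched on by MEK-ERK signaling, fell in each line, with fitted differences of -2.51 (SE 0.14, limma adjusted p = 0.00012) and -5.92 (SE 0.39, limma adjusted p = 0.0002) on the log2 scale. Trp53 was listed at 196 to 355 normalized counts over the 8 libraries. Of 8 ductal and epithelial markers, 7 had a mean of at least 10 normalized counts, and Epcam was listed at 0 in 6 libraries. Their summed level ran from 221230 to 348818 with DMSO and from 113156 to 222090 with trametinib, most of it from 4 keratin genes. Cdh1 ran from 19630 to 28487 and from 21158 to 27194, and Cldn4 was higher with trametinib in each line, at 12.4 to 244 and 671 to 1461. Sox9 was lower with trametinib in each line, at 295 to 1246 with DMSO and 65.5 to 828 with trametinib. The fibroblast markers, 4 of 7 with a mean of at least 10, summed to 83.5 to 351 with DMSO and 417 to 1243 with trametinib, where Col1a1 made up most of it, while Lum was listed at 0 throughout. The leukocyte markers, 3 of 5, summed to 145 to 231 and 227 to 509, with Csf1r reaching 340.0, while Ptprc, the defining marker, stayed at or under 17.2. The acinar markers, 1 of 6, summed to 36.4 to 253 and 28.2 to 129, mostly Cela1, with Cpa1 at 0 throughout. The adipocyte markers, 1 of 4, summed to 214 to 523 and 154 to 341, nearly all Cidec, with Lep at 0 throughout and Adipoq at or under 5.85. The 6 hepatocyte markers summed to 809 to 41583 with DMSO and 20031 to 164791 with trametinib, nearly all of it Apob, while Alb stayed at or under 142. In such bulk cultures, fewer cells of a type and less RNA per cell cannot be told apart, and the part of other cell types in the results below was not tested.

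Sequences upstream of 4 genes are shown because SREBP act at promoters together with the factors NF-Y and Sp1, and include 1 gene with the sterol element searched for, 2 genes that fell and 1 that rose. Each line gives the 250 bases before the start of the RefSeq promoter entry (GRCm38.p6), which for Hmgcs1 lies upstream of the GENCODE start given below, with the sterol regulatory element core TCACNCCAC and the NF-Y box CCAAT in capitals, on either strand, so that ATTGG is CCAAT on the reverse strand. Hmgcs1 (chr13:119690101-119690350, plus strand) and Mvk (chr5:114444019-114444268, plus strand) encode enzymes of the mevalonate pathway, Fasn (chr11:120824548-120824797, minus strand) encodes fatty acid synthase, and Abca1 (chr4:53159896-53160145, minus strand) is the LXR target with the largest change.
Hmgcs1: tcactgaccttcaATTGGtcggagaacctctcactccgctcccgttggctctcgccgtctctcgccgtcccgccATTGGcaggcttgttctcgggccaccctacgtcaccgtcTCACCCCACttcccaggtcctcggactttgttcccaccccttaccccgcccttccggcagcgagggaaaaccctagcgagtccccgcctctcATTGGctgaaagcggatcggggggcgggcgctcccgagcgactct
Mvk: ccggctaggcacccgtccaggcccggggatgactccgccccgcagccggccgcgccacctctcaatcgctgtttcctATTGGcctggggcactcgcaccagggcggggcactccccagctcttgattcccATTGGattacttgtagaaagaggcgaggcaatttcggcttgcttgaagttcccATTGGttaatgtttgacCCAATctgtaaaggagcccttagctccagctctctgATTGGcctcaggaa
Fasn: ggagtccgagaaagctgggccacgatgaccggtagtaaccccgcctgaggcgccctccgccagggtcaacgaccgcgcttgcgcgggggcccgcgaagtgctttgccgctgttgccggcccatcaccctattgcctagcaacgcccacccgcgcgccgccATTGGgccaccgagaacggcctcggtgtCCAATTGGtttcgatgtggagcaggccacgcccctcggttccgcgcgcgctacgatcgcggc
Abca1: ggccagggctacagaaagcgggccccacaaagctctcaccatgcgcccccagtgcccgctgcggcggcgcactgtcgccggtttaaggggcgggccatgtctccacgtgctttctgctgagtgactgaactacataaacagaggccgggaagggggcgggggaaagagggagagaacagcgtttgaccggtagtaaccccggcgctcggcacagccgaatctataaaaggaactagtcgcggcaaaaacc
The core TCACNCCAC was present in the Hmgcs1 promoter, 137 bases before the RefSeq start, and in no other of the member promoters on hand. CCAAT stood 3 times in the stretch shown for Hmgcs1, 5 times for Mvk, 3 times for Fasn, 2 of them overlapping, and 0 times for Abca1. RefSeq promoters of 300 bases, reaching 50 bases past the start, were on hand for 28 of the 36 members in 36 entries. Over these entries CCAAT was present in 63.9%, against 37.4% of all 32851 promoters and 37.8% of those of genes tested. Among the 24 SREBP targets with an entry, 20 held CCAAT in at least 1 entry. Counted by entry, as for all promoters, it was present in 72.4% of their 29 entries. GGGCGG, the Sp1 box, was present in 27 of the 36 member entries, 35.7% of all promoters and 60.0% of those of genes tested. TCACNCCAC was present in 1.24% of all promoters. A repeat of LXR half-sites, GGTCA followed in the same direction by another GGTCA with 5 bases between, was present in no member entry and in 0.0761% of all promoters. Only these exact letters were searched. The Abca1 and Fasn stretches above both hold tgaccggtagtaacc, which on the reverse strand reads GGTTA, 5 bases and GGTCA. It differs from the repeat searched for in 1 base and was not counted. These matches describe letters only and were not tested as binding sites.

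Trametinib lowered 9 of the 36 genes and raised 4, by a limma fit that takes each cell line as a block and calls an adjusted p under 0.05. The 9 lower genes were the mevalonate enzymes Mvk and Idi1, the cholesterol enzyme Lss, the escort protein gene Scap, the fatty acid genes Acly, Acaca, Fasn and Elovl6, and the cholesterol carrier gene Stard4. The 4 higher genes were Srebf2, the lysosomal cholesterol exporter gene Npc1, and the LXR targets Abca1 and Mylip. Of the 15888 genes tested, those whose normalized counts averaged 10 or more, 25.6% were lower, 27.3% higher and 53% either, so that the share of members that fell was near that of all genes, and the share that rose, 11.1%, was below it. The treatment groups did not overlap in 7 members, 6 lower and 1 higher, where 16.2% of all genes were lower and 15.1% higher without overlap. All 36 members passed this filter on low values, Abca1 and Mylip only because of their trametinib libraries and Abcg1 because of line #10. With libraries rescaled to equal totals, which moved the median log2 fold change of all genes from 0.07 to 0.20, 5 members were higher and 6 lower, and the split over all genes went from 4341 higher and 4075 lower to 5333 (33.5%) and 3285 (20.6%). Leaving out line #3 gave 7 higher and 10 lower members (26.7% and 25.5% of all genes), and leaving out line #1 gave 3 and 6 (21.2% and 21.3%). Leaving out line #5 gave 2 and 5 (21.6% and 20.8%). Leaving out line #10 gave 2 and 12 (21.7% and 20.8%), so that the share that fell there, 34.3% of the 35 members tested, was above that of all genes. Without the block, 1 member was higher and 5 were lower (13.9% and 14.8% of all genes). In 11 members trametinib was lower in all 4 lines, in 6 it was higher in all 4, and in the other 19 the lines differed in direction. These are 30.6%, 16.7% and 52.8% of the members, beside 30.9%, 34.7% and 34.4% of all genes tested. The plot of fold changes by line shows that line #3 had the lowest value in 26 of the 36 members, and line #10 was above 0 in 24.

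**Figure D1:**
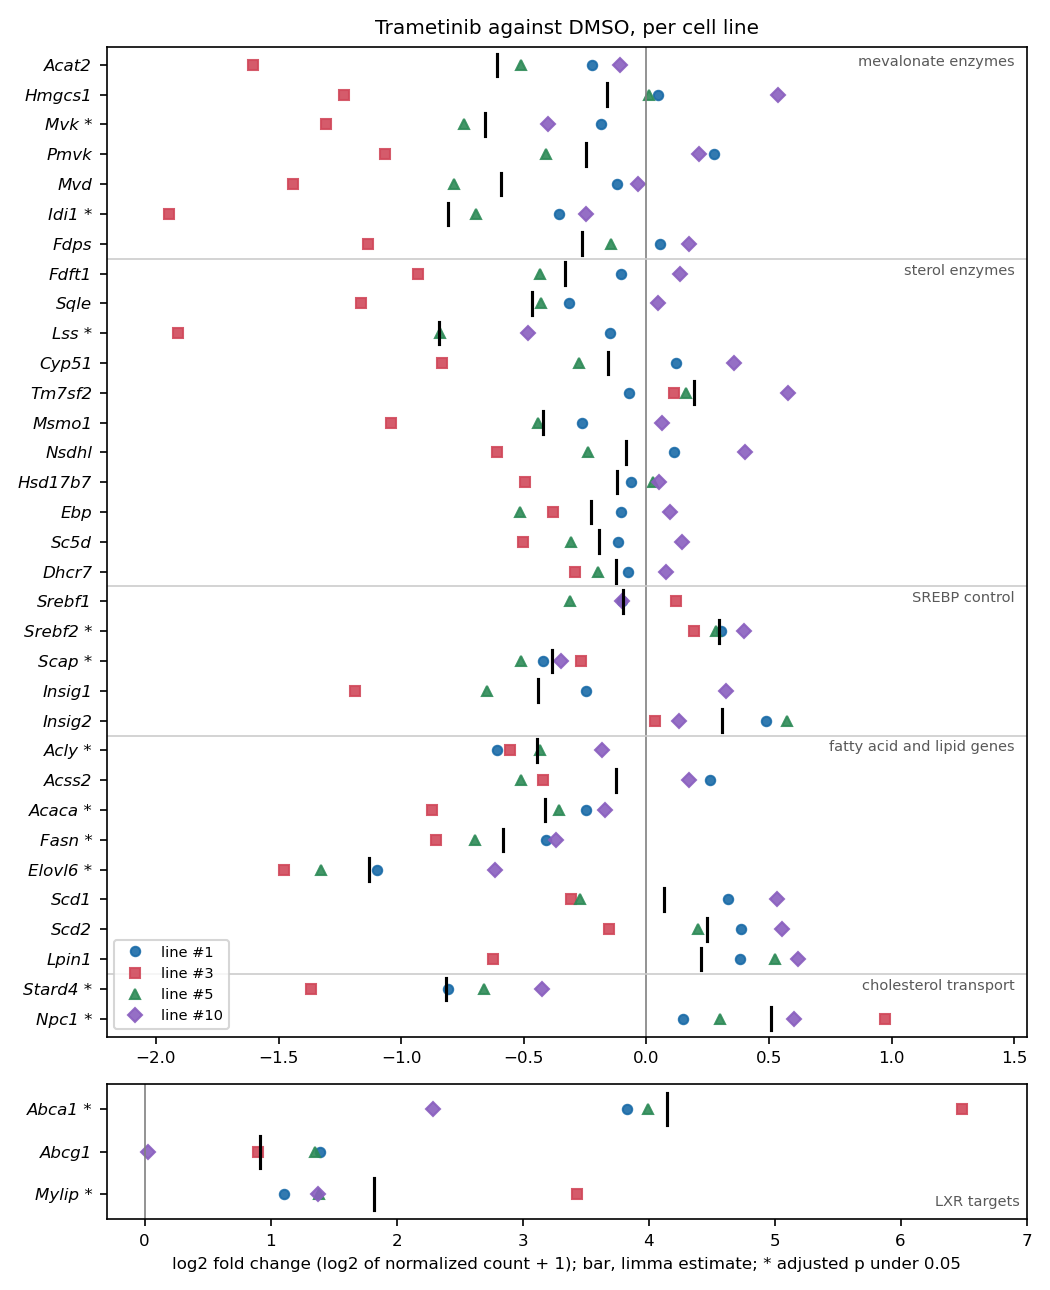
Log2 fold change of trametinib against DMSO for each of the 36 genes (rows, grouped by role) in each of the 4 lines (symbols), with the limma estimate as a black bar and an asterisk at an adjusted p under 0.05. The horizontal axis of the lower panel, with the LXR targets, is wider, since Abca1 reached 6.48 in line #3; the red squares of line #3 lie left of the other lines in most rows of the upper panel.

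Among the 7 mevalonate enzymes, Mvk and Idi1 fell, the other 5 did not pass the test, and none rose. The share that fell, 28.6%, was near the 25.6% of all genes. Mevalonate kinase, encoded by Mvk (chromosome 5 from 114444269 to 114460591 of GRCm38), phosphorylates mevalonate. Its normalized counts in lines #1, #3, #5 and #10 were 1283, 1858, 1624 and 1949 with DMSO and 1127, 751, 969.8 and 1477 with trametinib. Each line was lower with trametinib, although the groups overlap across lines. On the log2 scale the difference was -0.66 (SE 0.18, limma adjusted p = 0.021). Idi1 (chromosome 13 from 8885501 to 8892451), the isomerase that makes the allylic building block of isoprenoids, stood at 7835, 7229.6, 8199.6 and 6918 with DMSO and at 6119.7, 1876, 5067 and 5829 with trametinib. No trametinib library reached the lowest DMSO library, and line #3 lost far more than the others. Its fitted log2 difference was -0.81 (SE 0.27, limma adjusted p = 0.041), and -0.43 without line #3 (adjusted p = 0.012 in limma). Both calls were lost without line #5 (adjusted p = 0.074 for Mvk and 0.094 for Idi1 in limma), and that of Idi1 also without line #1 (adjusted p = 0.058 in limma). Idi1 also failed with libraries rescaled to equal totals and with quantile normalization (adjusted p = 0.070 and 0.083 in limma), and neither gene passed without the block (adjusted p = 0.057 and 0.11 in limma).

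Hmgcs1 (chromosome 13 from 119690379 to 119708260), whose product condenses acetyl-CoA with acetoacetyl-CoA and whose promoter above holds the letters TCACNCCAC, showed how far the lines went apart. It was at 12185, 10168, 9514 and 7988 with DMSO and 12589, 4320.2, 9584 and 11596 with trametinib in lines #1, #3, #5 and #10. Line #3 was far lower with trametinib, lines #1 and #5 hardly differed, and line #10 was higher. In the fit, the log2 difference was -0.16 (SE 0.26, limma adjusted p = 0.63), and it turned to 0.20 without line #3 (adjusted p = 0.19 in limma). Acat2, which joins 2 acetyl-CoA, and Mvd, which decarboxylates the pathway's diphosphate, were lower in all 4 lines but did not pass, with log2 fold changes of -0.61 (SE 0.24, limma adjusted p = 0.07) and -0.59 (SE 0.23, limma adjusted p = 0.068). Both passed with each library centred on its median (adjusted p = 0.036 for each in limma). Acat2 also passed without line #3 (log2 fold change -0.28, adjusted p = 0.048 in limma) and Mvd without line #10 (-0.78, adjusted p = 0.047 in limma), while without line #3 Mvd was at -0.31 (adjusted p = 0.13 in limma). Pmvk and Fdps, the kinase after Mvk and the synthase of farnesyl diphosphate, had log2 fold changes of -0.25 and -0.26 (adjusted p = 0.39 and 0.33 in limma), with 2 lines higher and 2 lower for each, and both were at 0.03 without line #3. In line #3, all 7 mevalonate enzymes were below -1, against 15.9% of all genes tested in that line, and in the other 3 lines none of the 7 was.

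**Figure D2:**
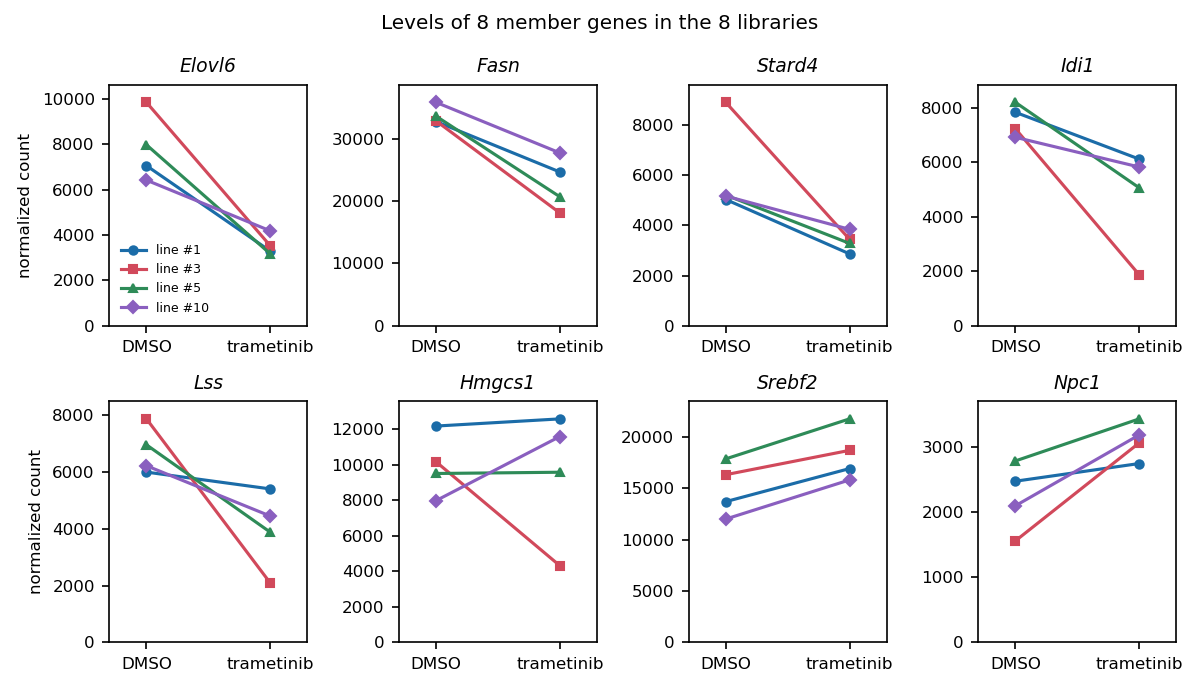
Normalized counts (axes from 0) of 8 genes with DMSO and with trametinib, a line joining the 2 libraries of each cell line. Elovl6, Fasn, Stard4, Idi1 and Lss were lower and Srebf2 and Npc1 higher with trametinib in each line, and Hmgcs1 went from 10168 to 4320.2 in line #3 and up in line #10.

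Of the 11 enzymes from squalene to cholesterol, Lss fell, the other 10 did not pass, and none rose, so that 9.09% fell beside 25.6% of all genes. Lss (chromosome 10 from 76531588 to 76557138), lanosterol synthase, closes the rings of the sterol skeleton. It stood at 6003, 7879.6, 6965 and 6227 with DMSO and at 5411, 2098, 3887 and 4455 with trametinib in lines #1, #3, #5 and #10. Every trametinib library lay below every DMSO library, with line #1 the least lowered. This amounted to -0.85 (SE 0.27, limma adjusted p = 0.033) on the log2 scale, and -0.49 without line #3 (adjusted p = 0.02 in limma). The call was lost without line #5 (adjusted p = 0.091 in limma), without line #10 (0.052), with equal totals (0.056) and with quantile normalization (0.060). Sqle (chromosome 15 from 59315077 to 59331192), squalene epoxidase, a rate-limiting step of the sterol branch, was at 8950.3, 10350.5, 10427 and 7796 with DMSO and 7183, 4622, 7736 and 8052 with trametinib. It was lower in lines #1, #3 and #5 and slightly higher in line #10. On the log2 scale the difference was -0.47 (SE 0.19, limma adjusted p = 0.072), and without line #10 it passed at -0.64 (adjusted p = 0.039 in limma), while without line #3 it was -0.23 (adjusted p = 0.10 in limma). Msmo1, a methyl sterol oxidase, behaved alike in direction, with -0.42 (SE 0.17, limma adjusted p = 0.079) on the log2 scale and, without line #10, -0.58 (adjusted p = 0.041 in limma), but -0.21 without line #3 (adjusted p = 0.14 in limma). With centring on the median, Sqle and Msmo1 passed as lower (adjusted p = 0.034 and 0.037 in limma).

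The remaining sterol enzymes had smaller estimates. Fdft1, which makes squalene, had -0.33 (SE 0.17, limma adjusted p = 0.14) on the log2 scale, and Ebp, the sterol isomerase, -0.23 (SE 0.12, limma adjusted p = 0.15). Cyp51, the lanosterol demethylase, went from 15369.7 to 8623 in line #3 and from 8249 up to 10555 in line #10, so that its log2 fold change of -0.16 did not pass (SE 0.19, limma adjusted p = 0.51). Sc5d and Dhcr7, which act in the last steps, had values of -0.20 and -0.12 (adjusted p = 0.21 and 0.3 in limma). Nsdhl and Hsd17b7, which work on the demethylation of the ring, had values of -0.08 and -0.12 (adjusted p = 0.69 and 0.42 in limma), and Cyp51, Nsdhl and Hsd17b7 each changed sign without line #3. Tm7sf2, a sterol reductase, was the 1 gene of the 18 enzymes from Acat2 to Dhcr7 with an estimate above 0, at 0.19 (SE 0.12, limma adjusted p = 0.22). Without line #3, Fdft1, Sc5d and Dhcr7 went to -0.13, -0.09 and -0.07. Without line #5, Ebp went to -0.13, and without line #10, Tm7sf2 went to 0.07. The 10 sterol enzymes other than Tm7sf2 were all lower in line #3. In line #10, 10 of the 11, all but Lss, were higher, by at most 0.58 on the log2 scale.

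In the SREBP control system, Srebf2 rose, the escort gene Scap fell, and Srebf1, Insig1 and Insig2 did not pass. Srebf2 (chromosome 15 from 82147181 to 82205379), which encodes the SREBP that mainly drives cholesterol genes, was at 13685, 16302, 17839 and 11992 with DMSO and 16894, 18666, 21725 and 15792 with trametinib in lines #1, #3, #5 and #10. It was higher in each line by a similar step, smaller than the spread between lines within a group, so that the groups overlap. Its fitted log2 difference was 0.30 (SE 0.08, limma adjusted p = 0.025), and the adjusted p was 0.23 without the block, 0.058 with each library centred on its median, and 0.088, 0.088 and 0.13 without lines #1, #5 and #10. With quantile normalization the difference was 0.56. Scap (chromosome 9 from 110333288 to 110384950) was at 3792, 3975, 3966 and 2594 with DMSO and 2833, 3303, 2786 and 2036 with trametinib. It was lower in each line, with line #10 lowest in both groups. In the fit, the log2 difference was -0.39 (SE 0.08, limma adjusted p = 0.0076). The call held with each line left out in turn (adjusted p of at most 0.043 in limma), but not without the block (adjusted p = 0.17).

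The estimates of the 2 Insig genes had opposite signs. Insig1 (chromosome 5 from 28071363 to 28078662), itself an SREBP target and a brake on the pathway, was at 5589, 11692, 5094 and 6056 with DMSO and 4708, 5125, 3241 and 7584 with trametinib. Line #3 started at about double the level of the other lines and ended within their range, and line #10 was higher. This amounted to -0.44 (SE 0.23, limma adjusted p = 0.14) on the log2 scale, and it passed without line #10 (-0.70, adjusted p = 0.031 in limma), while without line #3 it was -0.19 (adjusted p = 0.39 in limma). Insig2, the relative that is not under SREBP control, was higher in all 4 lines, with 0.31 (SE 0.12, limma adjusted p = 0.078) on the log2 scale. It passed without line #3 (0.40, adjusted p = 0.03 in limma) and with equal totals (0.43, adjusted p = 0.025 in limma). Srebf1, which encodes the SREBP that mainly drives fatty acid genes and whose own transcription responds to LXR, had -0.10 (SE 0.10, limma adjusted p = 0.42) on the log2 scale, and the sign turned with equal totals and with quantile normalization. Srebf1 went to -0.17 without line #3 and to -0.03 without line #5 (adjusted p = 0.10 and 0.87 in limma). Line #3 had the highest Srebf1 level of either group, 13585 under DMSO and 14772 under trametinib.

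Of the 8 fatty acid and glycerolipid genes, the 4 that lead from citrate to elongated fatty acids, Acly, Acaca, Fasn and Elovl6, all fell and were lower in each of the 4 lines, 4 of 8 beside 25.6% of all genes. The desaturase genes Scd1 and Scd2, with Acss2 and Lpin1, did not pass. Elovl6 (chromosome 3 from 129532355 to 129638495), the elongase that extends palmitate, had the largest fall of the 36 genes. It stood at 7055, 9843, 7974 and 6418 with DMSO and at 3296, 3531, 3177 and 4187 with trametinib in lines #1, #3, #5 and #10. The trametinib libraries lay close together and well below every DMSO library. On the log2 scale the difference was -1.13 (SE 0.15, limma adjusted p = 0.0012), that is 45.7% of the DMSO level, with -1.48 for line #3 and -0.62 for line #10 at the extremes. Fasn (chromosome 11 from 120805846 to 120824547) was at 32720.4, 32815, 33573 and 35790.0 with DMSO, a spread of 33724 ± 1429 (mean ± SD, n = 4 lines), and at 24647, 18088, 20676 and 27703 with trametinib. No trametinib library reached the lowest DMSO library. Its fitted log2 difference was -0.58 (SE 0.12, limma adjusted p = 0.006), or 66.7% of the DMSO level, and -0.34 with quantile normalization. Elovl6 and Fasn kept an adjusted p under 0.05 in each of the 14 alternatives.

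Acly (chromosome 11 from 100476353 to 100528000), the lyase that makes cytosolic acetyl-CoA from citrate and so feeds both routes, was at 16711, 15511, 17622 and 14465 with DMSO and 10969, 10550.0, 13038 and 12773 with trametinib. The groups did not overlap, and here line #1 rather than line #3 lost most. In the fit, the log2 difference was -0.44 (SE 0.10, limma adjusted p = 0.0099), and the adjusted p was 0.052 without line #1 and 0.15 with quantile normalization, where the difference was -0.20. Acaca (chromosome 11 from 84129672 to 84401651), acetyl-CoA carboxylase, the committed step of fatty acid synthesis, was at 6004, 7002, 7761 and 5561 with DMSO and 5059, 3816, 6059 and 4948 with trametinib. It was lower in each line, with groups that overlap. This amounted to -0.41 (SE 0.13, limma adjusted p = 0.034) on the log2 scale. This call was lost without the block, with equal totals and with quantile normalization (adjusted p = 0.11, 0.10 and 0.099 in limma), and without line #1 or #5 (0.063 and 0.086), and without line #3 the difference was -0.26 (adjusted p = 0.023 in limma).

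Scd2 (chromosome 19 from 44293674 to 44306864), 1 of the desaturases that put the first double bond into a saturated fatty acid, stood at 68443, 141918, 70268 and 75726 with DMSO and 89474, 127692, 81201 and 110937 with trametinib. Trametinib libraries were above DMSO for lines #1, #5 and #10, but not for line #3, whose DMSO library was far above the rest. On the log2 scale the difference was 0.25 (SE 0.15, limma adjusted p = 0.21), and without line #3 it passed as higher (0.38, adjusted p = 0.015 in limma). Without line #10 the difference was 0.15 (adjusted p = 0.56 in limma). Scd1 stood at 10055, 20517, 11021 and 12139 with DMSO and 12659, 16555, 9129 and 17550.4 with trametinib, up for lines #1 and #10, down for lines #3 and #5 (log2 fold change 0.07, adjusted p = 0.73 in limma). Lpin1, a phosphatidate phosphatase gene induced by SREBP, was likewise higher in every line but #3, from 782, 1125, 672 and 526 to 1019.5, 728, 966 and 808, with 0.22 (SE 0.21, limma adjusted p = 0.41) on the log2 scale and, without line #3, 0.51 (adjusted p = 0.0066 in limma). Lpin1 went to 0.12 without line #5 and to 0.09 without line #10 (adjusted p = 0.72 and 0.78 in limma). Acss2, which makes acetyl-CoA from acetate, had -0.13 (SE 0.17, limma adjusted p = 0.56) on the log2 scale.

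Of the 2 cholesterol transport genes, Stard4 fell and Npc1 rose in each line. Stard4 (chromosome 18 from 33199355 to 33213862) encodes a carrier that moves sterol between membranes and is induced by SREBP. It stood at 5032, 8898, 5208 and 5169 with DMSO and at 2869, 3451, 3287 and 3845 with trametinib in lines #1, #3, #5 and #10. The lines ended close together although line #3 had started far above the others. Its fitted log2 difference was -0.82 (SE 0.15, limma adjusted p = 0.0045), and -0.63 without line #3 (adjusted p = 0.0019 in limma). Npc1 (chromosome 18 from 12189692 to 12236400), which exports cholesterol from lysosomes, was at 2480.0, 1563, 2792 and 2103 with DMSO and 2752, 3069.6, 3439 and 3192 with trametinib. Line #3 went from the lowest DMSO level to a level among the others, the largest rise of the 4 lines. In the fit, the log2 difference was 0.51 (SE 0.14, limma adjusted p = 0.023). Its adjusted p was 0.071 without the block, 0.060 with centring on the median and 0.083 without line #10.

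The 3 LXR targets were higher with trametinib in each of the 4 lines, from low levels, and Abca1 and Mylip passed the test. Both entered the test through their trametinib libraries. Their count, median, rank and calls after the filter are thus given as descriptions and support nothing. Without the filter their adjusted p was 0.0033 and 0.042 in limma. Abca1 (chromosome 4 from 53030787 to 53159895), the transporter that loads cholesterol onto lipoprotein particles, stood at 13.4, 11.0, 2.37 and 8.26 with DMSO and at 203, 1070.5, 52.7 and 44.2 with trametinib in lines #1, #3, #5 and #10. The DMSO value of line #5 rests on about 2 reads, and line #3 reached over 5 times the trametinib level of any other line. The groups did not overlap. This amounted to 4.15 (SE 0.63, limma adjusted p = 0.002) on the log2 scale, higher than that of 99.6% of the genes tested, and without line #3 it was 3.37 (adjusted p = 0.0013 in limma). Abca1 passed in each of the 14 alternatives, with an adjusted p of at most 0.015.

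Mylip (chromosome 13 from 45389742 to 45412022), whose product marks the receptor for low-density lipoprotein for degradation, was at 2.8, 1.53, 21.3 and 1.73 with DMSO and 7.18, 26.3, 57.0 and 6.07 with trametinib. The DMSO values of lines #3 and #10 lie under the floor of 3 reads, and only line #5 stood clearly above it in both libraries, so the sizes in the other lines are uncertain. On the log2 scale the difference was 1.82 (SE 0.50, limma adjusted p = 0.02), 1.29 without line #3 (adjusted p = 0.044 in limma), and the adjusted p was 0.17 without the block. With a pseudocount of 5 the difference was 1.22. Without line #5, Mylip fell below the filter and was not tested. Abcg1 (chromosome 17 from 31057675 to 31117988), a second cholesterol exporter, was at 2.16, 0, 2.31 and 41.3 with DMSO and 7.29, 0.87, 7.44 and 42.1 with trametinib. Line #10 stood at about 43 reads in both libraries with hardly a difference, while in line #3 the gene was listed at 0 with DMSO and rested on about 1 read with trametinib. The log2 fold change of 0.92 did not pass (SE 0.44, limma adjusted p = 0.12), and leaving out the mean-variance trend put it at an adjusted p of 0.041. Its size rests on the pseudocount, at 1.66 with 0.1 and 0.45 with 5. Without line #10, Abcg1 fell below the filter.

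**Figure D3:**
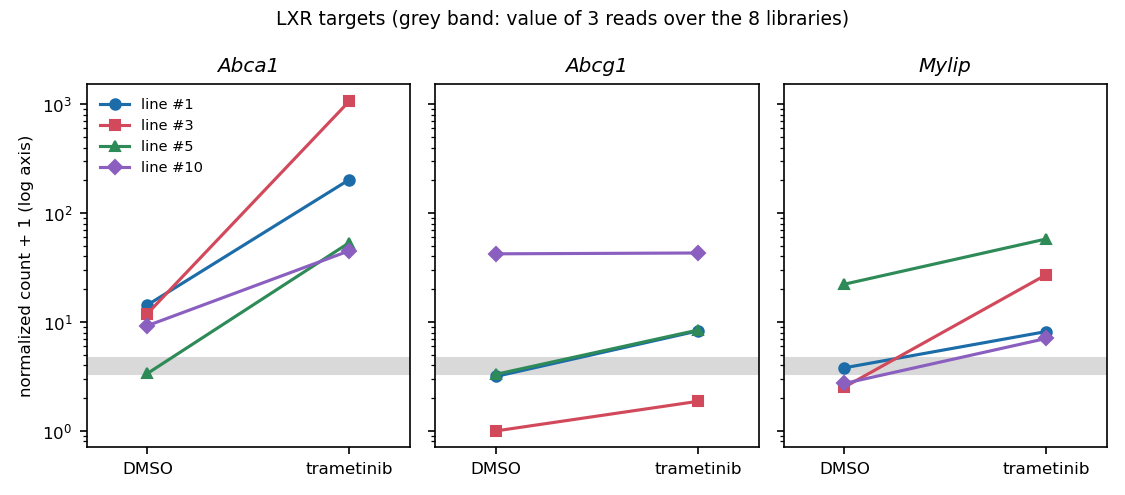
Normalized counts plus 1 (log axis) of the 3 LXR targets with DMSO and trametinib in the 4 lines, with the value of 3 reads over the libraries as a grey band. Abca1 rose out of the range near the band in each line, to 1070.5 in line #3, while most libraries of Abcg1 and Mylip stayed near it.

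Set side by side, the SREBP targets and the LXR targets had medians on opposite sides of 0 in lines #1, #3 and #5, and both medians were above 0 in line #10. The 31 SREBP targets are the enzymes, the fatty acid and transport genes, Insig1, Srebf1 and Srebf2. Srebf1 was counted on this side only, although its transcription also responds to LXR, so the sets depend on how genes were assigned. Of the 31 SREBP targets, 8 were lower and 2 higher, or 25.8% and 6.45%, beside 25.6% and 27.3% of all genes. The median log2 fold change of the SREBP targets was -0.10 in line #1, -0.86 in line #3, -0.41 in line #5 and 0.10 in line #10, a mean of -0.32 ± 0.42 (SD, n = 4 lines). For the LXR targets it was 1.39, 3.43, 1.38 and 1.37, a mean of 1.89 ± 1.03 (SD, n = 4 lines), and for all genes tested between 0.03 and 0.06 per line. The LXR median exceeded the SREBP median by 1.49, 4.29, 1.79 and 1.28 in the 4 lines, a mean of 2.21 ± 1.40 (SD, n = 4 lines), and by 1.52 on average without line #3, where the mean SREBP median was -0.14 and the mean LXR median 1.38. These are descriptions without a test, since the genes were chosen with results known, and with 3 genes of low counts the LXR median depends on few reads. Over the pseudocounts and scalings tried, the mean of the SREBP medians stayed below 0, between -0.38 and -0.15, and that of the LXR medians between 1.25 and 2.28.

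**Figure D4:**
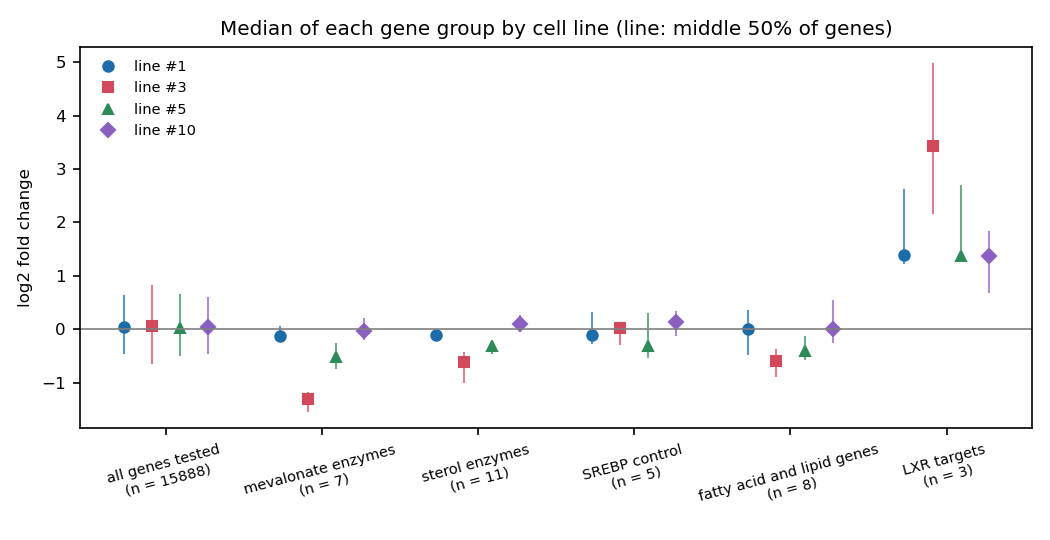
Median log2 fold change of each gene group in each line (symbols), with thin lines spanning the middle 50% of the genes, beside all 15888 genes tested. The mevalonate enzymes of line #3 lie at -1.31 and those of line #10 at -0.03, while the medians of all genes lie between 0.03 and 0.06.

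Line #3 differed from the others in extent. The mevalonate median was -0.12, -1.31, -0.51 and -0.03 in lines #1, #3, #5 and #10, the sterol enzyme median -0.10, -0.61, -0.31 and 0.10, and the fatty acid median 0.01, -0.59, -0.40 and 0.00. In line #3, 13 of the 36 members were below -1, against 1, 1 and 0 members in lines #1, #5 and #10. Over all genes tested, 15.9% were below -1 in line #3 and between 8.52% and 8.86% in the others, so larger falls in line #3 were not limited to these genes. Line #3 had the lowest fold change of the 4 lines in 72.2% of members and in 37.5% of all genes tested. It also had the highest DMSO level in 19 members, or 52.8%, against 26.5% of all genes, and the lowest trametinib level in 17, or 47.2%, against 37.5%. The DMSO level enters the fold change, so these counts are not independent. With 1 library per line and treatment, a difference between lines could not be tested, and the line, its dose and its library cannot be told apart.

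Genes around the pathway that are no members were counted from lists also chosen with earlier results known. Of 13 further genes of isoprenoid and sterol metabolism tested, 7 were lower and 0 higher, beside 25.6% and 27.3% of all genes, with a median log2 fold change of -0.37 against 0.07 for all genes. The largest were Pdss1, the first enzyme of the ubiquinone side chain, at -1.63 (SE 0.24, limma adjusted p = 0.0018), Tmem97, a sterol-regulated membrane protein gene, at -1.57 (SE 0.21, limma adjusted p = 0.0014), and Lbr, the lamin B receptor, which also has sterol reductase activity, at -1.32 (SE 0.13, limma adjusted p = 0.00054). Of 9 further genes of SREBP processing and reductase turnover, 2 were higher and 3 lower, with a median of 0.11. Erlin1 and Erlin2, which form 1 complex in the endoplasmic reticulum, went apart, at -1.02 (SE 0.13, limma adjusted p = 0.0011) and 0.74 (SE 0.11, limma adjusted p = 0.0023). Of 31 further fatty acid and glycerolipid genes tested, 6 were higher and 7 lower, with a median of -0.10, with Lpin3 at 1.39 (SE 0.17, limma adjusted p = 0.001) and Acsl6 at -1.31 (SE 0.23, limma adjusted p = 0.0037) among the largest. Of 9 further genes of the LXR system, 4 were higher and 1 lower. Smpdl3a, an LXR target, went from 44.4, 97.7, 64.3 and 20.9 with DMSO to 213, 526, 326 and 165 with trametinib, without overlap, 2.48 (SE 0.19, limma adjusted p = 0.00032) on the log2 scale. Pltp, the phospholipid transfer protein gene and also an LXR target, was at 1.58 (SE 0.22, limma adjusted p = 0.0015). The median of these 9 genes was 0.17, and the same shares of all genes, 27.3% higher and 25.6% lower, stand beside each of these counts.

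Reads of some members could have been assigned elsewhere. In GENCODE M21, over 20% of the transcript 31-mers of 5 members occur in another gene, 43.7% for Acat2 (shared with Acat3 and Tcp1), 33.5% for Acaca, 31.9% for Fdft1, 27.9% for Fdps and 27.1% for Idi1. Scd1 and Scd2, which belong to a family on chromosome 19, shared 8.18% and 6.81%. For 13 members, exons overlap another gene on either strand.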

How the data were processed

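The authors prepared stranded mRNA libraries from 4 PDAC lines with and without trametinib and deposited normalized counts for each gene. This is a signal that the authors had scaled for comparison across libraries. The submitters' processing notes name CASAVA 2.17, Salmon 0.12 and DESeq2 1.18 and the build mm10, without their roles. All 8 value columns were used. Between 55.0% and 68.0% of values under 20 reads lay within 0.05 of a whole multiple of the value of 1 read, so whole reads could not be recovered and no count test was run.

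Values were transformed as log2(value + 1), which understates the change of low genes, and compared in R 4.3.3 by limma 3.58.1 (lmFit, eBayes with trend, two-sided) with the cell line as a block, across 15888 genes that averaged 10 or more. Benjamini-Hochberg adjustment covered all of them, and an adjusted p under 0.05 was called. The p-values measure the spread of the difference between the 4 lines. The 2 libraries of a number come from the same cell line per the labels, and their deviations from the group means correlated at 0.63 to 0.72 across genes. The fit was tested on simulated data. Group medians are descriptions without a test. The named genes are all 36 members and, from each further list, up to 3 called genes with the largest change. Members and lists were chosen with earlier results of these data known. Positions and transcripts are from GENCODE M21 (GRCm38) and promoters from RefSeq, matched by symbol. The alternatives were pseudocounts of 0.1 and 5, equal totals, quantile normalization, centring on the median, no filter, a filter at 50, no block, no trend, robust estimation, and each line left out. Tables and plots were made in Python 3.11.15 (numpy 2.4.6; pandas 2.3.3; matplotlib 3.10.9). Faxdc2, Elovl2, Elovl3 and Thrsp were not tested. The genotype is given in part, and the rest of it is not reported here.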

Additional observations from a re-analysis of the deposited data

Results flagged for a closer look

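In 108 sets of 4 lines (DMSO, trametinib and fold change of each member), 11 held 1 value apart from the rest. For independent sets chance gives about 1 in 20, or 5.4. The sets are not independent, since each fold change is computed from the counts of the same gene, so 11 beside 5.4 is no test. In line #3, Insig1 was at 11690 normalized counts with DMSO against 5094 to 6056 in the others, Scd2 at 141900 against 68443 to 75726, and Stard4 at 8898 against 5032 to 5208. With trametinib, line #3 stood at 14770 for Srebf1 against 7288 to 7673, and at 1070 for Abca1 against 44.2 to 203. The log2 fold change of Mylip in line #3 was 3.43 against 1.11 to 1.38. In line #10, Abcg1 was at 41.3 with DMSO against 0 to 2.31, and at 42.1 with trametinib against 0.87 to 7.44, and Scap was at 2594 with DMSO against 3792 to 3975. Nsdhl was at 3242 with DMSO in line #1 against 2264 to 2389, and Mylip at 21.3 with DMSO in line #5 against 1.525 to 2.80. Line #3 accounts for 6 of the 11 values, and causes were not tested.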

How the results depend on the processing

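With the replicate block left out, which ignores that the 2 libraries of a number share a cell line, 1 member was higher (4 with the block) and 5 lower (9), and over all genes 2205 were higher (4341) and 2347 lower (4075). Lss, Acly, Fasn, Elovl6, Stard4 and Abca1 passed with and without the block. With centring on the median, 2 members were higher and 13 lower, with Acat2, Mvd, Sqle and Msmo1 added (24.2% and 28.3% of all genes), and 5 were lower with quantile normalization or without the trend (26.6% and 23.2% of all genes). Leaving out each line in turn gave 2 to 7 higher and 5 to 12 lower members, beside 21.2% to 26.7% and 20.8% to 25.5% of all genes. Without the trend the calls of Mvk, Idi1, Lss, Acaca, Srebf2 and Npc1 were lost, and without the filter those of Idi1, Lss and Acaca. The cause was not tested. Abcg1 and Mylip were not tested with a filter at 50, nor Abcg1 without line #10 or Mylip without line #5. Signs turned, with no call on either side, for Nsdhl (0.0450), Hsd17b7 (0.0071), Dhcr7 (0.0051), Srebf1 (0.0302) and Acss2 (0.0022) with equal totals, and for Hmgcs1 (0.0232), Cyp51 (0.0259), Nsdhl (0.0165) and Srebf1 (0.0865) with quantile normalization. With lines left out, log2 fold changes that crossed 0 ran from -0.39 to 0.20 for Hmgcs1, -0.42 to 0.0278 for Pmvk, -0.41 to 0.0275 for Fdps, -0.33 to 0.0666 for Cyp51, -0.24 to 0.0927 for Nsdhl, -0.18 to 0.0044 for Hsd17b7, -0.25 to 0.0039 for Acss2 and -0.0830 to 0.20 for Scd1. The medians of the SREBP targets, the LXR targets, the mevalonate and sterol enzymes together and the fatty acid genes kept their sign and moved by less than their SD over the lines. Without line #3 those of the SREBP targets, the enzymes and the fatty acid genes went from -0.32, -0.37 and -0.24 to -0.14, -0.15 and -0.13. For these groups the SD, at 0.42, 0.50 and 0.30, was larger than the median itself, so a move below it says little. The other group medians were not recomputed. Depth limits Abcg1 outside line #10, Mylip outside line #5 and Abca1 in line #5, where at least the DMSO value lies near or under 3 reads.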

Other observations

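Of 18 genes of fatty acid oxidation and its regulators, trametinib raised 8 and lowered 2 in the limma fit, beside 27.3% and 25.6% of all genes, with a median log2 fold change of 0.08 against 0.07 for all genes. Cpt1c, a carnitine palmitoyltransferase gene, had normalized counts of 99.4, 61.1, 112 and 479 under DMSO and 446, 862, 729 and 1159 under trametinib, lines #1, #3, #5 and #10 in order, 2.48 (SE 0.37, limma adjusted p = 0.002) on the log2 scale. Ppargc1a, a coactivator of mitochondrial genes, went from 112, 61.0, 103 and 73.9 to 346, 512, 349 and 406, without overlap, 2.21 (SE 0.26, limma adjusted p = 0.00095) on the log2 scale. Pparg, a nuclear receptor that drives lipid storage in fat cells, was lower in each line, from 2106, 3189, 2979 and 2191 to 1213, 869.7, 842 and 1264, -1.32 (SE 0.22, limma adjusted p = 0.0028) on the log2 scale.

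Of 14 genes that store, release or move cholesterol, 8 were higher and 3 lower, beside the same shares of all genes, 27.3% and 25.6%, with a median of 0.34. Lipa, the lysosomal lipase that frees cholesterol from its esters, was higher in each line at 1.14 (SE 0.17, limma adjusted p = 0.0018), and Gramd1a, a sterol transfer protein gene, at 1.20 (SE 0.13, limma adjusted p = 0.00065). Cav1, the caveolin gene, was lower in each line at -1.48 (SE 0.30, limma adjusted p = 0.006). Apob, the structural protein of lipoproteins, was singled out after its values were seen. It went from 41548, 772, 7372 and 33766 with DMSO to 133798, 19880, 58417 and 164010 with trametinib in lines #1, #3, #5 and #10.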
